A study of Mus musculus with 12 samples.

Results

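The higher-numbered Zfp genes form a set of 107 mouse zinc finger genes, whose symbols run from Zfp700 upward and whose RNA was detected well enough in growing oocytes to be compared. They were chosen by symbol and by a mean of at least 50 normalised read counts over all 12 libraries, so the mean level selected the members and is given here as a description. Of 139 genes in this number range, 107 passed the minimum, 32 were below it, and 6 of these 32 had no count in any library. The whole table held 55450 genes. Just outside the minimum were Zfp995 (mean 39.4), Zfp976 (27.8) and Zfp783 (27.1). Just inside it were Zfp974 (60.3), Zfp879 (64.0) and Zfp981 (67.2).

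The libraries were polyA RNA sequencing of hand-picked mouse oocytes from wild-type (WT) and Tbpl2-/- ovaries, 3 libraries per group. Oocytes came from primary follicles at postnatal day 7 (P7) or from secondary follicles at postnatal day 14 (P14), which gave 4 groups, WT and Tbpl2-/- at P7 and the same pair of genotypes at P14. Each library was made from a pool of 130 to 400 oocytes. The labels call the mutant a null, and picking oocytes by hand and by size fixes which oocytes of each ovary were measured. The sources used here do not say how many animals gave each pool, so p-values measure the spread between these pools.

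Most genes of this set encode KRAB zinc finger proteins. Such a protein binds DNA through a row of C2H2 zinc fingers, each contacting a few bases, and its KRAB box recruits TRIM28, which brings in SETDB1 and other silencing enzymes to build heterochromatin. The family grew by local gene duplication, so its genes lie in clusters of close relatives, and many members are known in mouse to silence retrotransposons. TBPL2 is the oocyte-specific relative of the TATA-binding protein and takes its place in growing oocytes. The comparisons asked how RNA of these genes differed between genotypes at each stage, and between stages in each genotype.

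Libraries held 31467610 to 48030724 counts each. Tbpl2 itself had 3090, 3317 and 3027 normalised counts in the P7 WT libraries and 117, 75.3 and 99.9 in the P7 mutants. At P14 it had 2110, 2442 and 1901 in WT and 83.3, 81.9 and 75.3 in the mutants, so each library matched the genotype of its label. Tbpl2 does not check the stage, since the mutant values overlapped between stages. The summed level of 15 oocyte markers ranged from 2203948 to 3046818 normalised counts in WT libraries and from 797679 to 1045747 in mutants. The 17 granulosa markers summed to 2741 to 3666 in P7 WT and 1282 to 1692 in P7 Tbpl2-/-. They summed to 2381 to 2612 in P14 WT and 2312 to 2704 in P14 Tbpl2-/-. Of 15 that could be tested 11 were lower in P7 mutants, against 28.9% of all genes tested. The 10 theca and stroma markers summed to 82.8 to 132.8 in P7 WT, 164.6 to 199.7 in P7 Tbpl2-/-, 127.6 to 175.0 in P14 WT and 120.6 to 195.0 in P14 Tbpl2-/-. The 9 endothelium and blood markers summed to 1175 to 1962 in P7 WT and 829.9 to 915.1 in P7 Tbpl2-/-. They summed to 3335 to 3975 in P14 WT and 1034 to 1228 in P14 Tbpl2-/-. These sums were lower in mutants without overlap at both stages. Of 4 that could be tested 2 were lower and 1 higher in P14 mutants, against 27.8% and 29.9% of all genes tested. Cdh5, Hbb-bs, Hba-a1, Ptprc and Lyz2 were too low to test. The part of these differences in the results on Zfp genes was not tested, and in pools of cells fewer cells of a type and less RNA per cell cannot be told apart.

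A search of the longest annotated coding sequence for a KRAB-like pattern and for C2H2 fingers found a KRAB box in 86 of the 107 genes, all of which also had fingers. These 86 had a median of 11 fingers, from 3 to 30. The other 21 included Zfp706, Zfp740, Zfp768, Zfp771, Zfp787 and Zfp711, and also Zfp939, which is annotated as a pseudogene and has no coding sequence. Some genes in this group, such as Zfp956 and Zfp974, may carry a diverged box that the pattern missed. The genes lay on 17 chromosomes, and 69 of them stood in 12 clusters of at least 3 members with gaps under 1 Mb (GRCm38). The largest cluster had 12 genes on chr17:21567008-22867134, followed by 10 genes on chr4:145510759-147848366 and 8 on chr13:67038596-67687071.

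Sequence sharing limits what a read can say about these genes, because only uniquely aligned reads were counted. The share of 50-base stretches of a gene's transcripts that also occur in another gene had a median of 3.41%. It exceeded 10% in 38 genes and 50% in 6, namely Zfp960 (82.7%), Zfp978 (77.4%), Zfp980 (71.3%), Zfp984 (54.5%), Zfp955a (51.8%) and Zfp971 (51.1%). Levels of those genes are uncertain. The kit does not mark strand, and 8 genes had over 10% of their exon bases overlapped by another gene, among them Zfp865 (28.4%), Zfp704 (16.6%) and Zfp703 (13.5%).

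Core promoters of the set were read from RefSeq promoter sequences (GRCm38.p6), which matched 92 of the 107 genes. They are shown because TBPL2 and the TATA-binding protein both act at the core promoter. The starts are those that RefSeq annotates, and the starts used in these oocytes were not mapped here. The study mapped starts in P14 oocytes and reports that start use can shift within a promoter with the genotype. It scored TATA boxes with a weight matrix, not by exact letters. The letters below therefore do not show which promoter sequences these genes used in oocytes. The letters TATAAA or TATATA on the gene's strand, 45 to 16 bases before the start, were present in 1 of the 92 genes (1.09%), against 3.56% of 27025 genes with a promoter sequence. TATAAA on either strand anywhere from 250 bases before to 50 after the start was present in 4 of the 92 (4.35%), against 15.7% of genes. The median number of CpG dinucleotides in that window was 10.5 for the set and 8 for all genes. The gene with the TATA letters was Zfp791, on chr8. RefSeq gives more than one start for it, and the start that holds the letters is shown. In the lines below, the 100 bases before the start are given on the gene's strand. Capitals mark TATAAA in Zfp791, whose RNA fell in mutants at P14. They mark CpG dinucleotides in Zfp980 and Zfp758, which fell at both stages, in Zfp850, which rose at both stages, and in Zfp771 and Zfp787, which rose at P14 and did not pass the test at P7.
Zfp791, chr8:85119692-85119791, minus strand: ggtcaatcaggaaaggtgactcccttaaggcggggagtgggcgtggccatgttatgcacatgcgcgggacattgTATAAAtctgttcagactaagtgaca
Zfp980, chr4:145670597-145670696, plus strand: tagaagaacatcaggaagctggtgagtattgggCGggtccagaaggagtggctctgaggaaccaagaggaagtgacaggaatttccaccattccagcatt
Zfp758, chr17:22361363-22361462, plus strand: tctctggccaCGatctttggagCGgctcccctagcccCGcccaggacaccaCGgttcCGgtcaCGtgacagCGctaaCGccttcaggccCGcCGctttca
Zfp850, chr7:28014116-28014215, minus strand: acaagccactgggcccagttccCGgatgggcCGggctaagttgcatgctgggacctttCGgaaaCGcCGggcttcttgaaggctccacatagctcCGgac
Zfp771, chr7:127244426-127244525, plus strand: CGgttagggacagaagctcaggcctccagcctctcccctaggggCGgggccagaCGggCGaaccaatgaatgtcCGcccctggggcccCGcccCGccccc
Zfp787, chr7:6155966-6156065, minus strand: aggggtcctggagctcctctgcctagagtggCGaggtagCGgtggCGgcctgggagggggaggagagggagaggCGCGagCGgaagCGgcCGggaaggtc
These sequences ran from 1 CpG in Zfp980 to 10 in Zfp758, both of which fell, while Zfp850 held 6, Zfp771 held 7 and Zfp787 held 8. Matches to these letters describe the sequence and are not evidence of binding.

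Levels within the set spanned from 60.3 (Zfp974) to 10821 (Zfp706) normalised counts as the mean over libraries, with a median of 699. After Zfp706, a small protein reported in mouse embryonic stem cells to favour exit from self-renewal, came Zfp707 (10707), Zfp956 (7717), Zfp979 (5975), Zfp777 (5488) and Zfp958 (5443). Per kilobase of median transcript length, Zfp706 stood at 21949.9 normalised counts, ahead of Zfp777 (7457), Zfp707 (6287) and Zfp961 (5419.8). Zfp706 had 11568, 12962 and 11441 normalised counts in P7 WT and 10704, 10520.1 and 10167 in P7 Tbpl2-/-. It had 10782, 12603 and 10942 in P14 WT and 10824, 8869.7 and 8472 in P14 Tbpl2-/-. The P14 groups overlapped, and its P14 difference was at the threshold (-0.26 ± 0.11 on the log2 scale, adjusted p = 0.0499). It missed the threshold under several alternatives and changed sign with library size alone (0.15). All 107 genes together took 0.339 ± 0.0209% of counts in P7 WT, 0.442 ± 0.0027% in P7 Tbpl2-/-, 0.359 ± 0.0039% in P14 WT and 0.473 ± 0.0071% in P14 Tbpl2-/- (SD, n = 3 each). Oocyte marker levels were lower in the mutants, and a share of counts moves with the rest of the library.

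At P7 the genes as a set were more often higher than lower in Tbpl2-/- oocytes. Here and at P14, values are relative to the other RNA of each library, so a rise need not mean more RNA per oocyte. The excess of rises lay mainly among members with lower means and members in clusters. By edgeR's quasi-likelihood test with Benjamini-Hochberg adjustment over all 17715 genes tested, at an adjusted p of at most 0.05, 47 of 107 (43.9%) rose, 24 (22.4%) fell and 36 did not pass. Of all genes tested, 30.5% were higher and 28.9% lower in this comparison. The median log2 fold change was 0.26 for the set and 0.015 for all genes. More than 2-fold, 29 rose (background 15.5%) and 9 fell (background 17.1%). The 53 members with the lowest means had 28 rises and 8 falls, with a median of 0.61. The 54 with the highest means had 19 rises (35.2%) and 16 falls (29.6%), with a median of 0.12. All genes with the same minimum mean had 34.9% rises and 31.3% falls. The 69 members in clusters had 36 rises and 11 falls, and the 38 outside clusters had 11 rises and 13 falls. These differences within the set were not tested. KRAB genes were 42 higher and 17 lower of 86, with a median of 0.40, and the 21 genes without a KRAB box were 5 higher and 7 lower, with a median of -0.10. With library size alone as the scaling, which moves the median of all genes from 0.015 to 0.29, 64 rose and 12 fell. The median of the set relative to all genes was 0.25 under either scaling. The median of the set itself was 0.18 without P7 WT replicate 3 and 0.39 without P7 WT replicate 1.

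At P14 the set as a whole stood close to the rest of the transcriptome, while parts of it differed. Of 107 genes, 37 (34.6%) rose, 30 (28.0%) fell and 40 did not pass, against 29.9% higher and 27.8% lower among all genes tested. The median log2 fold change was 0.047, against 0.066 for all genes, and it was -0.011 without P14 WT replicate 1. More than 2-fold, 21 rose (background 16.7%) and 11 fell (background 14.6%). KRAB genes were 29 higher and 23 lower, and genes without the box 8 higher and 7 lower. The 69 members in clusters had 28 rises and 13 falls, with a median of 0.16. The 38 outside clusters had 9 rises and 17 falls, with a median of -0.30. The 53 members with the lowest means had 21 rises and 11 falls, and the 54 with the highest 16 rises and 19 falls. These differences within the set were not tested. Library size alone gave 54 higher and 15 lower, with the median of all genes at 0.48 and that of the set at 0.46.

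**Figure D1:**
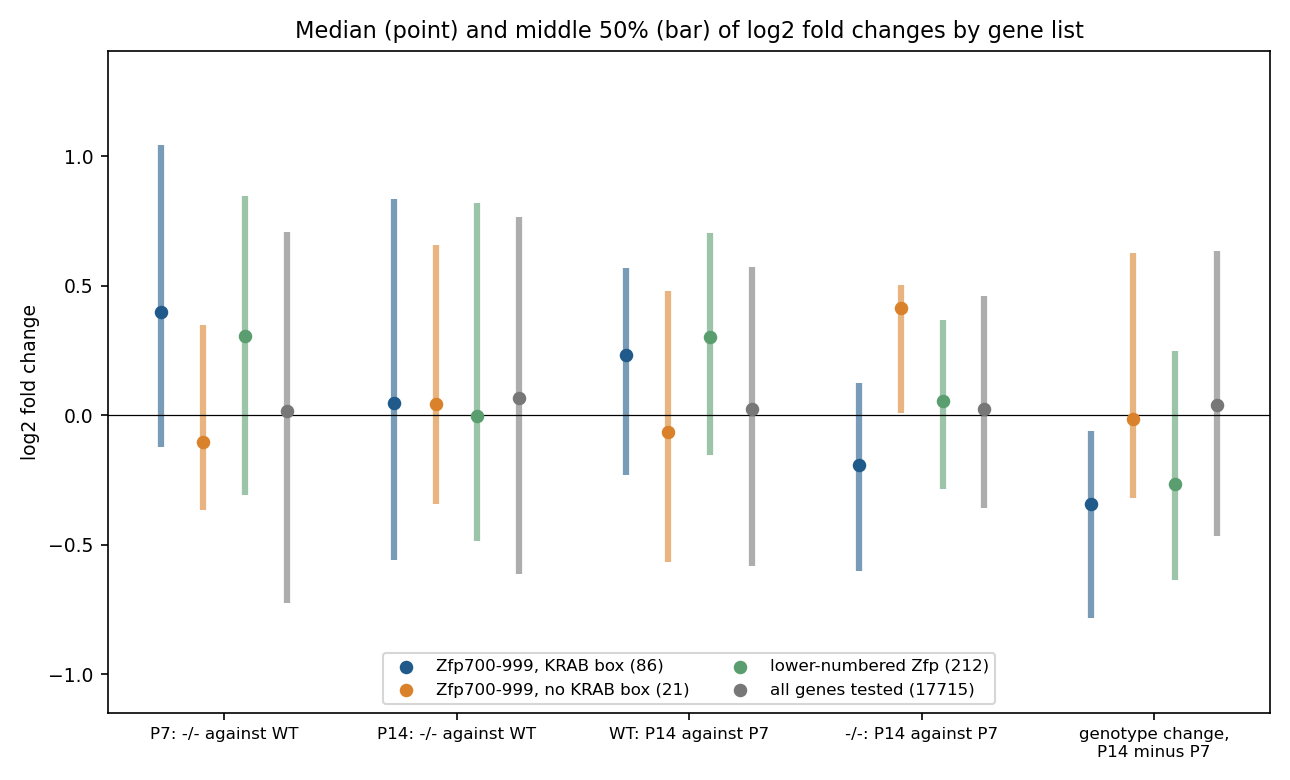
Median log2 fold change (point) and its middle 50% of genes (bar) in 5 comparisons for KRAB members, members without a KRAB box, lower-numbered Zfp genes and all genes tested. At P7 the KRAB members sit at a median of 0.40 and all genes at 0.015, while at P14 both are near 0. Library size alone moves the median of all genes to 0.29 at P7 and 0.48 at P14.

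The changes at both stages went mostly the same way. Of the 107 genes, 28 (26.2%) rose at both stages and 17 (15.9%) fell at both, against 19.5% and 18.6% of all genes tested. In all, 19 (17.8%) passed at neither stage, against 23.4% of all genes. Among 5 that passed in opposite directions, 2 (1.87%) fell at P14 and 3 (2.80%) rose at P14, against 1.37% and 1.04% of all genes. Another 17 (15.9%, all genes 9.63%) rose at P7 and did not pass at P14, and 4 (3.74%, all genes 9.21%) fell at P7 alone. At P14 alone, 11 (10.3%, all genes 7.9%) fell and 6 (5.61%, all genes 9.33%) rose. Across the 107 genes the log2 fold changes at P7 and P14 had a Pearson correlation of 0.77 and a Spearman correlation of 0.71. For 12853 genes with the same minimum mean the values were 0.77 and 0.72. The stages share no library but share the fit and its scaling.

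**Figure D2:**
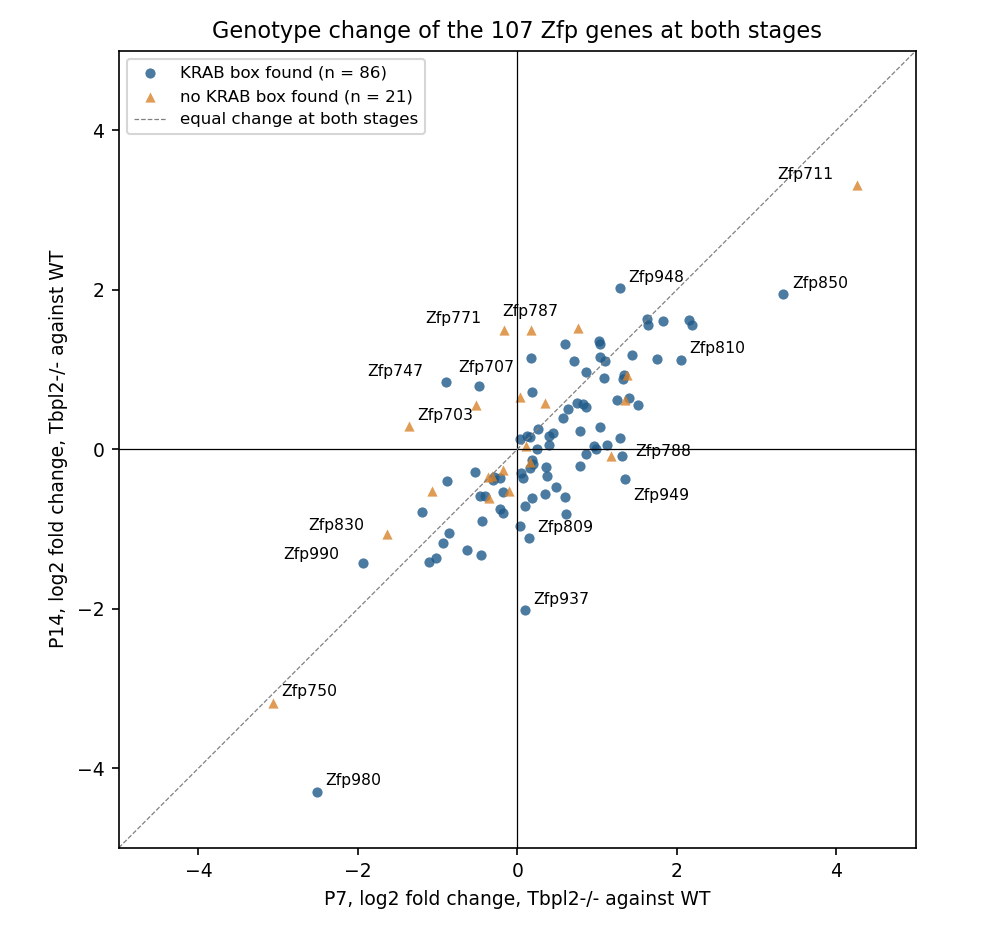
Each point is a Zfp gene, with its log2 fold change in Tbpl2-/- against WT at P7 on the x axis and at P14 on the y axis, and the dashed line marks equal change. Zfp711 lies highest (4.26 and 3.31), Zfp980 lowest at P14 (-4.30), and Zfp937 fell at P14 (-2.02) with 0.098 at P7.

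Zfp711, an X-linked gene without a KRAB box whose human counterpart is mutated in intellectual disability, rose most of all members at either stage. Its normalised counts were 24.1, 30.6 and 2.04 in P7 WT and 362, 359 and 362 in P7 Tbpl2-/-. At P14 they were 4.29, 3.44 and 8.30 in WT and 56.5, 38.2 and 68.4 in mutants. The genotypes were apart at both stages, and in P14 mutants the level was far below that of P7 mutants. Zfp711 reached the minimum mean of 50 only through the P7 mutants, since its mean over the other 9 libraries was 26.2, so its rise at P7 is partly fixed by how members were chosen and is given as a description. It was the only such member, and without it 46 members rose at P7 and 36 at P14. The fold change of Zfp711 at P7, given here and below with its standard error from the fit, was 4.26 ± 0.47 on the log2 scale. Its P7 p-value is left out, since the P7 mutants admitted the gene. At P14 the fold change was 3.31 ± 0.59 on the log2 scale, adjusted p = 0.000229.

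Zfp850, a KRAB gene on chr7:27984854-28014115, was the next highest riser at P7. It had 139.6, 153 and 104 normalised counts in P7 WT and 1124, 1605 and 1245 in P7 mutants (3.34 ± 0.21 on the log2 scale, adjusted p = 3.49e-09). It had 215, 339.8 and 312 in P14 WT and 1125, 983 and 1189 in P14 mutants (1.95 ± 0.20 on the log2 scale, adjusted p = 5.6e-07). The WT level was higher at P14 than at P7 (1.13, adjusted p = 0.000332), and in mutants the difference between stages did not pass (-0.26, adjusted p = 0.287). Zfp948 rose from 361, 374 and 307 to 1419, 1402 and 1347 at P14 (2.02 ± 0.13 on the log2 scale, adjusted p = 7.43e-09) and from 369.7, 446 and 459 to 1039, 1096 and 951 at P7 (1.29 ± 0.13 on the log2 scale, adjusted p = 5.76e-07). No mutant library overlapped a WT library in either gene. Members named for the largest changes at a stage, here and in other paragraphs, were picked only where the genotypes did not overlap there. For them non-overlap was required and is a description. The other members with the largest rises at P14 were Zfp820 (1.64), Zfp874a (1.62), Zfp934 (1.61), Zfp871 (1.56), Zfp975 (1.55), Zfp704 (1.53) and Zfp771 (1.50). Zfp871, Zfp874a (2.15) and Zfp810 (2.05) were also among the 5 largest rises at P7. Zfp934 and Zfp975 share 30.9% and 30.4% of their 50-base stretches with other genes.

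Among abundant genes, Zfp746 and Zfp777 rose in mutants. Zfp746 encodes PARIS, a substrate of parkin that represses the gene for PGC-1alpha. It had 2232, 1998 and 2511 normalised counts in P7 WT and 4687, 4318 and 4572 in P7 mutants (1.03 ± 0.10 on the log2 scale, adjusted p = 5.39e-07). At P14 it had 2399, 2377 and 2276 in WT and 6171, 5851 and 5756 in mutants (1.35 ± 0.10 on the log2 scale, adjusted p = 3.45e-08). The 3 libraries of each group lay close together and the genotypes did not overlap. Zfp777, which lies beside Zfp746 on chr6, rose by 1.09 at P7 and 0.90 at P14 on the log2 scale.

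Zfp980, a KRAB gene of the cluster on chr4, fell most at P14. Its normalised counts were 493, 505 and 397 in P14 WT and 22.0, 20.1 and 27.7 in P14 mutants (-4.30 ± 0.27 on the log2 scale, adjusted p = 3.72e-09). At P7 they were 202, 202 and 109 in WT and 27.3, 33.9 and 27.3 in mutants (-2.51 ± 0.26 on the log2 scale, adjusted p = 6.86e-07). The genotypes were apart at both stages, and the WT level was higher at P14. Of its 50-base stretches 71.3% also occur elsewhere, most in Rex2, so unique reads can come only from the rest of the gene.

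Zfp750, the mouse counterpart of a regulator of epidermal differentiation, fell at both stages. It had 4042, 3534 and 3580.1 normalised counts in P7 WT and 399, 459 and 455 in P7 mutants (-3.07 ± 0.17 on the log2 scale, adjusted p = 1.08e-09). It had 5811, 4688 and 5584 in P14 WT and 423, 627 and 699 in P14 mutants (-3.18 ± 0.17 on the log2 scale, adjusted p = 9.72e-10). The genotypes were widely apart. None of its 50-base stretches occur in another gene.

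Zfp830, an intronless gene for a protein linked to pre-mRNA splicing and needed in early mouse embryos, also fell at both stages. It had 3360.4, 3894 and 3998 in P7 WT and 1295, 1152 and 1146 in P7 mutants (-1.63 ± 0.11 on the log2 scale, adjusted p = 9.43e-09). It had 3611, 3543 and 3116 in P14 WT and 1639, 1650.2 and 1553 in P14 mutants (-1.06 ± 0.11 on the log2 scale, adjusted p = 7.87e-07). The fall was larger at P7 than at P14 by the interaction test (0.57, adjusted p = 0.0145). The remaining members with the largest falls at P14 were Zfp937 (-2.02), Zfp758 (-1.42), Zfp933 (-1.36), Zfp951 (-1.32), Zfp959 (-1.26), Zfp964 (-1.18) and Zfp809 (-1.11). At P7 Zfp990 (-1.94) and Zfp703 (-1.36) were among the 5 largest falls.

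Zfp990 differed strongly between libraries of a group. It had 227, 20.1 and 20.8 normalised counts in the P14 mutants and 245, 172 and 292 in P14 WT. P14 Tbpl2-/- replicate 1 stood at the WT level and the other 2 mutant libraries far below it. The P14 change did not pass with all libraries (-1.43 ± 0.76 on the log2 scale, adjusted p = 0.136), and was -3.48 without that library, past the threshold. Its P7 fall was near the threshold (-1.94, adjusted p = 0.0454) and was lost when any of 9 other libraries was left out.

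**Figure D3:**
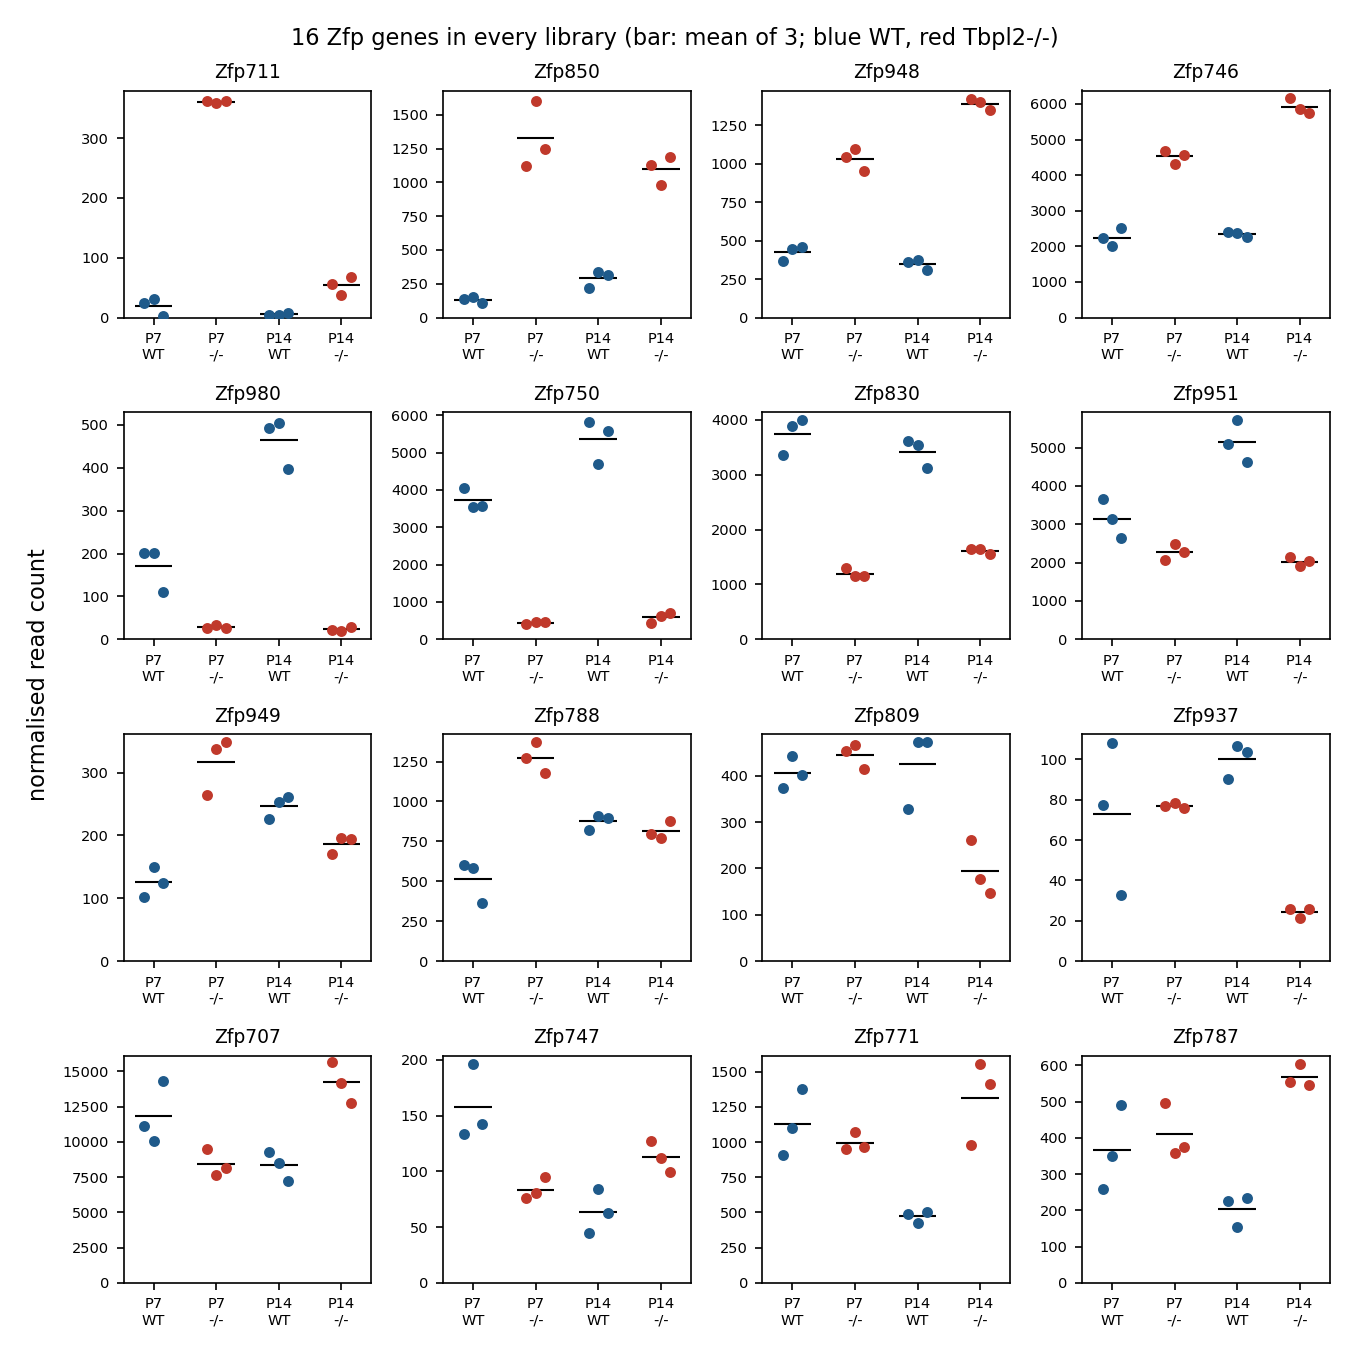
Normalised read counts of 16 Zfp genes in each of 12 libraries, with points for libraries and a bar for the mean of 3. Rows show genes higher in mutants, genes lower in mutants, genes whose genotype change was more negative at P14, and genes whose change was more positive at P14. Zfp711 reaches 362 in P7 mutants, and Zfp750 stays at or below 699.2 in all mutant libraries.

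The genotype change differed between stages for many members. In the interaction test, which compares the change at P14 with that at P7, 26 of 107 (24.3%) were lower at P14 and 9 (8.41%) higher, against 14.3% lower and 13.6% higher among all genes tested. The median was -0.25 for the set and 0.041 for all genes. Among 12853 genes with the same minimum mean, 18.7% were lower and 15.5% higher, with a median of -0.036. KRAB genes made up 24 of the 26 lower and 3 of the 9 higher. The count of 26 was 15 without P14 Tbpl2-/- replicate 2 and 16 without P7 Tbpl2-/- replicate 2. Of 15 granulosa markers tested, 10 were higher and none lower in this same contrast, and a link with the Zfp genes was not tested.

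Zfp937, Zfp949, Zfp788, Zfp809 and Zfp791 show the more common form. Zfp949, a KRAB gene on chr9:88548020-88571061, had 102, 150.1 and 125 normalised counts in P7 WT and 265, 337 and 349 in P7 mutants (1.35 ± 0.18 on the log2 scale, adjusted p = 1.32e-05). At P14 it had 225, 254 and 261 in WT and 170.4, 196 and 195 in mutants (-0.38 ± 0.18 on the log2 scale, adjusted p = 0.0837). The WT level was higher at P14, the mutant level lower, and the interaction was -1.73, adjusted p = 0.000549. Zfp788 had 604, 583 and 363 in P7 WT and 1273, 1372 and 1175 in P7 mutants (1.32 ± 0.17 on the log2 scale, adjusted p = 6.36e-06). At P14 its genotypes overlapped, with 821, 909 and 895 in WT and 794, 772 and 879 in mutants.

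Zfp809 is known in mouse to bind the proline primer binding site of retroviruses and to recruit TRIM28 to them. It had 374, 443 and 403 normalised counts in P7 WT and 454, 467 and 415 in P7 mutants (0.15 ± 0.20 on the log2 scale, adjusted p = 0.534). It had 329.5, 474 and 473 in P14 WT and 261, 177 and 146 in P14 mutants (-1.11 ± 0.20 on the log2 scale, adjusted p = 0.000227). The groups overlapped at P7 and were apart at P14, where the mutants were lower. The difference between stages passed the test (-1.26, adjusted p = 0.00553). Zfp791, the member with the TATA letters printed above, had 1364, 1271 and 1149.8 in P7 WT and 1136, 1263 and 1426 in P7 mutants. At P14 it had 3536, 3079 and 2568 in WT and 1222, 1710.5 and 1713 in mutants (-0.96 ± 0.16 on the log2 scale, adjusted p = 8.42e-05), a WT rise with age that was larger than in mutants by the interaction test (-0.99, adjusted p = 0.00539).

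Zfp937 fell from 90.2, 107 and 104 normalised counts in P14 WT to 25.9, 21.5 and 26.0 in P14 mutants (-2.02 ± 0.34 on the log2 scale, adjusted p = 9.89e-05). At P7 the WT libraries had 77.4, 108 and 32.7 and the mutants 76.8, 78.4 and 75.7. The P7 WT libraries scattered around the mutants, and 29.4% of its stretches are shared with other genes.

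Zfp707, Zfp747, Zfp771, Zfp787 and Zfp703 went the other way. Zfp707 had 11155, 10067 and 14343 normalised counts in P7 WT and 9518, 7621 and 8129.7 in P7 mutants (-0.47 ± 0.14 on the log2 scale, adjusted p = 0.00857). It had 9261, 8479 and 7249 in P14 WT and 15681, 14196 and 12779 in P14 mutants (0.79 ± 0.14 on the log2 scale, adjusted p = 0.000177). Mutants were lower at P7 and higher at P14, with no overlap at either stage. The P7 fall did not pass without P7 WT replicate 3 (-0.32) or with library size alone (-0.20), and the interaction was 1.27, adjusted p = 0.000727.

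Zfp747 had 134, 196 and 142 normalised counts in P7 WT and 75.8, 80.5 and 94.6 in P7 mutants (-0.89 ± 0.24 on the log2 scale, adjusted p = 0.00468). At P14 it had 45.1, 83.8 and 62.2 in WT and 127, 112 and 99.5 in mutants (0.85 ± 0.25 on the log2 scale, adjusted p = 0.00789). This gene shares 34.4% of its 50-base stretches with others. Its neighbour Zfp771 had 488, 425 and 504 in P14 WT and 979, 1557 and 1414 in P14 mutants (1.50 ± 0.18 on the log2 scale, adjusted p = 4.63e-06). At P7 Zfp771 had 905, 1103 and 1378 in WT and 949, 1069 and 962 in mutants, which overlapped. For Zfp787 the P14 values were 225, 153 and 234 in WT and 554, 604 and 546 in mutants (1.49 ± 0.23 on the log2 scale, adjusted p = 4.02e-05). In each of these 3 genes the P14 WT libraries were lower than the P7 WT libraries, by -1.30, -1.25 and -0.84 on the log2 scale. The other members that passed in opposite directions were Zfp865 (-0.52 at P7, 0.55 at P14), Zfp955a (0.35, -0.56) and Zfp984 (0.49, -0.47).

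Zfp703, a gene of the NET family whose human counterpart is a breast cancer oncogene, had 349.6, 433 and 709 normalised counts in P7 WT and 171, 193 and 209 in P7 mutants (-1.36 ± 0.33 on the log2 scale, adjusted p = 0.00283). At P14 it had 287, 193 and 352 in WT and 184, 426 and 393 in mutants, which overlapped (0.29 ± 0.32 on the log2 scale, adjusted p = 0.46). Its family relative Zfp704 rose at both stages, to 1160.2, 1238 and 1315 in P14 mutants from 395, 428 and 483 in P14 WT (1.53 ± 0.13 on the log2 scale, adjusted p = 1.45e-07). Granulosa marker levels were lower in P7 mutants, the same direction as Zfp703, and a link between them was not tested.

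From P7 to P14 the median of the set lay above that of all genes in WT and below it in mutants. In WT, 33 of 107 (30.8%) rose with age and 19 (17.8%) fell, against 26.8% higher and 23.4% lower among all genes tested, with a median of 0.21 against 0.026. In Tbpl2-/- oocytes, 18 (16.8%) rose and 25 (23.4%) fell, against 18.4% and 15.3% of all genes, with a median of -0.15 against 0.023. The 53 members with the lowest means had 3 rises and 22 falls in mutants, with a median of -0.39. The 54 with the highest means had 15 rises and 3 falls, with a median of 0.056. KRAB genes had 12 rises and 23 falls, with a median of -0.19. Genes without the box had 6 rises and 2 falls, with a median of 0.41. These differences within the set were not tested. When the 6 mutant libraries alone were fitted with the replicate number as a block, 27 rose and 33 fell, with a median of -0.18, and without the block that fit gave 21 and 31. The fall count in WT was 11 without P14 WT replicate 1 or replicate 2 and 12 without P7 WT replicate 2. With the 69 genes that share at most 10% of their sequence, the mutant median was 0.039, and 15 rose and 15 fell.

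In WT, the largest rises with age were Zfp760 (1.49), Zfp980 (1.44), Zfp791 (1.28), Zfp819 (1.27) and Zfp964 (1.24). Zfp819, which binds TRIM28 in mouse embryonic stem cells, had 104, 109 and 100.2 normalised counts in P7 WT and 259, 310.0 and 189.8 in P14 WT (1.27 ± 0.19 on the log2 scale, adjusted p = 9.03e-05). In mutants it had 169, 168 and 213 at P7 and 348, 361 and 401 at P14 (1.02 ± 0.19 on the log2 scale, adjusted p = 0.000671), so it rose with age in both genotypes without overlap. The largest falls in WT were Zfp711 (-1.78), Zfp970 (-1.55), Zfp747 (-1.30), Zfp771 (-1.25) and Zfp971 (-1.25). The fall of Zfp711 in WT rests on few counts, and its call was lost without P7 WT replicate 1 or 2 or P14 WT replicate 1 or 2 (-1.26 without P7 WT replicate 2) and with the replicate block. In mutants the largest rises were Zfp982 (1.65), Zfp735 (1.46) and Zfp819, and the largest falls Zfp711 (-2.73), Zfp871 (-1.85) and Zfp937 (-1.65). Zfp711 reached the minimum mean only through the P7 mutants. Its fall in mutants is therefore partly fixed by how members were chosen and is given as a description. Zfp735 rose with age in WT too, from 1077, 1109 and 881 to 2110.2, 2222 and 2001, and in mutants from 406, 450.4 and 468 to 999, 1202 and 1417. The mutants were below WT at each stage.

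Other members with a known role or a high level changed less. Zfp932, which in mouse represses retroviral elements together with its close copy Gm15446, had log2 fold changes of 0.0015, adjusted p = 0.994 at P14 and 0.25, adjusted p = 0.152 at P7, with 37.0% of its stretches shared. Zfp768 had 0.66, adjusted p = 0.00366 at P14 and 0.031, adjusted p = 0.888 at P7. Zfp740 had -0.61, adjusted p = 0.000887 at P14 and -0.36, adjusted p = 0.0274 at P7. Its P7 call was lost without P7 WT replicate 1 (-0.22) or P7 Tbpl2-/- replicate 1 or 3, and with library size alone neither stage passed (-0.20 at P14, -0.078 at P7). Zfp770 had -0.53, adjusted p = 0.0129 and Zfp800 0.58, adjusted p = 0.0196 at P14, and neither passed at P7. The P14 calls of Zfp770 and Zfp800 were each lost when a P14 library was left out. Zfp958 fell at both stages (-0.59 at P14, -0.47 at P7), and with library size alone neither passed (-0.17, -0.19). Zfp839 passed as lower at both (-0.34, -0.36), but with library size alone it was 0.072 and -0.083. Its P14 call was also lost with no low-count filter and without P14 WT replicate 3 or P14 Tbpl2-/- replicate 1 or 2, and its P7 call without P7 WT replicate 1 (-0.24) or P7 Tbpl2-/- replicate 3. Zfp956 (-0.15, adjusted p = 0.26 at P14), Zfp930 (0.15, adjusted p = 0.387) and Zfp961 (0.25, adjusted p = 0.0952) did not pass at either stage, while Zfp979 passed at both (0.53, adjusted p = 0.025 at P14). Zfp979 lost its P14 call without P14 WT replicate 1 or 3. Zfp708, Zfp804a and Zfp827 were below the minimum mean, at 2.12, 1.19 and 8.80.

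Genes of the same cluster did not all move together. The counts below stand beside 30.5% higher and 28.9% lower at P7 and 29.9% higher and 27.8% lower at P14 among all genes tested, and no cluster was tested against the rest. In the cluster of 12 KRAB genes on chr17:21567008-22867134, 7 rose and 2 fell at P7, with a median of 0.82, and at P14 4 rose and 2 fell, with a median of 0.14. Zfp948 and Zfp820 of this cluster rose while Zfp758 fell. The 10 genes on chr4:145510759-147848366, a cluster region whose deletion in mouse embryonic stem cells is known to release retrotransposons, had 4 rises and 4 falls at P7 and 1 rise and 4 falls at P14. On chr13:67038596-67687071, 4 of 8 rose and none fell at P7, and 1 rose and 1 fell at P14. On chr7:41633203-43618285, 6 of 7 rose at P7 and 5 at P14, with 1 fall at each stage. All 3 genes on chr7:6131491-7209998 (Zfp787, Zfp954 and Zfp772) and all 3 on chr7:127244274-127376050 (Zfp771, Zfp768 and Zfp747) rose at P14. On chr9:22188090-22307648, Zfp810 rose at both stages and Zfp809 fell at P14.

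**Figure D4:**
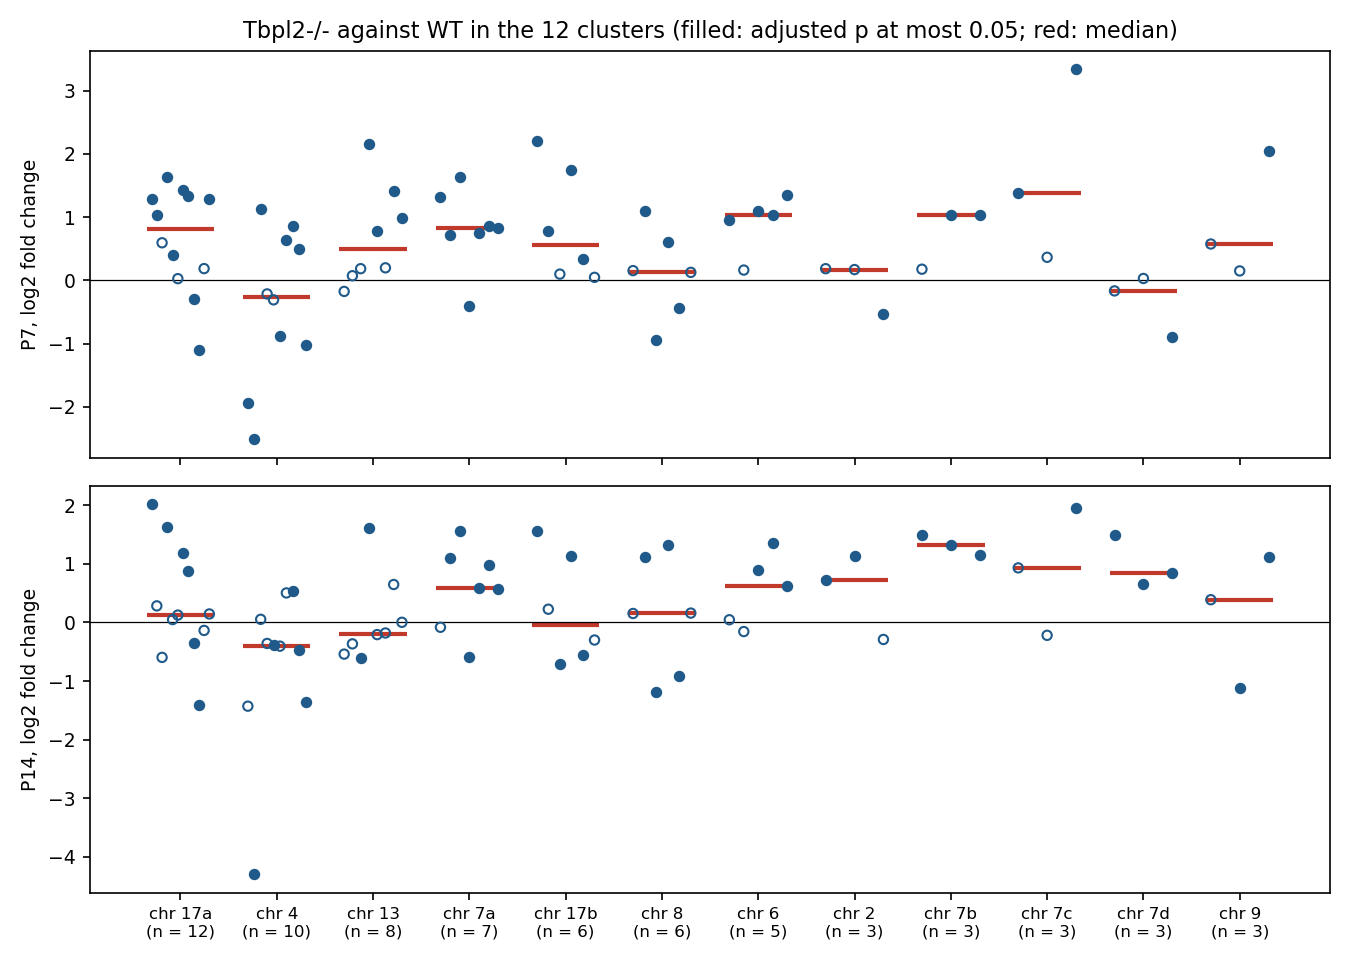
Log2 fold changes in Tbpl2-/- against WT of the members in 12 chromosomal clusters, at P7 (top) and P14 (bottom), with filled points for an adjusted p of at most 0.05 and red lines for cluster medians. The chr 17a cluster of 12 genes has a median of 0.82 at P7 and 0.14 at P14, and the chr 4 cluster includes Zfp980 at -4.30 at P14.

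Zfp genes of lower number with the same minimum mean (212 genes) showed a similar picture, so the pattern of the set is not called particular to it. At P7 93 of 212 were higher and 48 lower, with a median of 0.31, against 30.5% and 28.9% of all genes tested. At P14 70 were higher and 68 lower, with a median of -0.0023, against 29.9% and 27.8%. In the interaction 52 were lower and 24 higher, with a median of -0.27, against 14.3% and 13.6%. With age in WT 97 rose and 31 fell, against 26.8% and 23.4%. With age in mutants all genes tested had 18.4% rises and 15.3% falls. With age in mutants 42 rose and 26 fell, with a median of 0.054, where the higher-numbered set had -0.15, a difference that was not tested. The largest changes among them at P14 were the rises of Zfp658 (4.54), Zfp202 (3.00) and Zfp59 (2.58) and the falls of Zfp36 (-4.89), Zfp108 (-2.79) and Zfp385b (-2.59). Zfp36 is an RNA-decay protein with fingers of another class.

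KRAB proteins act through co-repressor and heterochromatin proteins. Of 39 genes for these, 18 were lower and 5 higher at P14, with a median of -0.25, against 27.8% lower and 29.9% higher and a median of 0.066 over all genes tested. At P7 22 were lower and 5 higher, with a median of -0.36, against 28.9% lower and 30.5% higher and a median of 0.015. The difference from the Zfp genes was not tested. Trim28, the direct partner of the KRAB box, had 7744, 6484 and 7385 normalised counts in P14 WT and 9239, 12392 and 12636 in P14 mutants (0.69 ± 0.15 on the log2 scale, adjusted p = 0.000984), and also rose at P7 (0.50, adjusted p = 0.00942). Setdb1, the histone H3 lysine 9 methyltransferase that TRIM28 recruits, had 21456, 24097 and 21789.9 in P14 WT and 10902, 11379 and 13237 in P14 mutants (-0.90 ± 0.14 on the log2 scale, adjusted p = 6.24e-05). At P7 Setdb1 did not pass (-0.16, adjusted p = 0.364). At P14 the largest falls in this list were Dnmt1 (-2.35), Smarcad1 (-1.99) and Atrx (-1.98), and the largest rises Suv39h1 (1.23), Mbd3 (0.93) and Cbx3 (0.81).

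Of 14 KRAB zinc finger genes of known function outside the number range, 6 fell and 3 rose at P14, and 3 fell and 8 rose at P7. Among all genes tested, 27.8% were lower and 29.9% higher at P14, and 28.9% and 30.5% at P7. With 14 genes, the difference from these shares was not tested. Zfp57, which keeps methylation at imprinted loci, had 39953, 35330.4 and 34936 normalised counts in P14 WT and 15932, 18197 and 18371 in P14 mutants (-1.05 ± 0.10 on the log2 scale, adjusted p = 4.97e-07), and fell at P7 too (-1.52, adjusted p = 9.99e-09). Zfp445, which acts with it at imprinted loci, did not pass at P14 (-0.02, adjusted p = 0.931) and rose at P7 (0.69, adjusted p = 0.00245). The largest rises at P14 were Zfp13 (2.47), Zfp324 (1.88) and Rsl1 (1.83), and the largest falls Zfp619 (-1.84), Zfp560 (-1.58) and Zfp568 (-1.23). The minimum mean was not applied to this list. Those rises start from low P14 WT means, 16.95 normalised counts in Zfp13, 11.74 in Zfp324 and 13.83 in Rsl1.

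Restricting the set to the 69 genes with at most 10% of 50-base stretches shared kept the direction at P7, where 31 rose and 13 fell with a median of 0.37. At P14 24 rose and 21 fell. The 54 KRAB genes among them had 29 rises and 8 falls at P7, with a median of 0.60. The 38 genes with more shared sequence had 16 rises and 11 falls at P7, with a median of 0.19.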

How the data were processed

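Mouse oocyte RNA was sequenced in 12 libraries of 3 per group, each made from pooled oocytes. Per the labels and the study's methods, the authors amplified RNA with SMART-Seq v4, made Nextera XT libraries that do not mark strand, made single reads of 50 bases, aligned reads to mm10 with STAR 2.7.0f and counted uniquely aligned reads per Ensembl gene with HTSeq 0.9.1 in union mode. The deposited table holds these whole-number counts per gene, and the authors' normalised counts (a signal unit), which are the counts divided by DESeq2 1.22.2 size factors. It also holds a median transcript length per gene, another value the authors deposited, and their fold changes and p-values, which were not used.

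Members were the genes with symbols Zfp700 to Zfp999 and a mean normalised count of at least 50. The members and gene lists were chosen with earlier results of these data known. Counts were fitted with edgeR 4.0.16 (R 4.3.3), with TMM factors, filterByExpr and the robust quasi-likelihood fit of 4 group means over all 12 libraries. P-values were adjusted by Benjamini-Hochberg over 17715 genes, and log2 fold changes carry the standard error from the test's F value. Values printed per library are the deposited normalised counts, and errors are SDs. Tested on simulated data, the fit recovered 187 of 200 changed genes with 10 false calls. The simulation gave every gene the same spread and changed only those 200 genes, in P14 mutants. In the real data 27.8% of genes tested were lower and 29.9% higher at P14, so the simulation does not give their error rate. Gene names and positions came from GENCODE M21 (GRCm38), which matched 55450 IDs, and promoters from RefSeq (GRCm38.p6). Library totals of 31467610 to 48030724 set the depth.

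Named members were those with the largest changes in each comparison, the highest means, those at the minimum mean and those with a known role. For the genotype changes at P14 and at P7, only members that passed the test and whose genotypes did not overlap were ranked. With 3 libraries against 3 an exact permutation test of a single value cannot go below p = 0.1, so none was used. Replicate numbers were checked for pairing by the correlation of same-numbered libraries' deviations from their group means, over genes with a mean of at least 100. Every same-numbered pair exceeded 0.1 only between P7 and P14 mutants (0.54, 0.27 and 0.30). There P14 replicate 3 also correlated with P7 replicate 2 (0.40), and P14 replicate 2 with P7 replicate 3 (0.19). The data thus do not settle how replicates 2 and 3 pair, and the labels give no pairing. A fit of the mutant libraries with the block was added after seeing the data. Alternatives were DESeq2 1.42.0, RLE and upper-quartile factors, library size alone, no low-count filter, a replicate block, fits of only the groups compared, leaving out each library, minimum means of 100 and 20, and genes with little shared sequence. Proteins are not printed, since no protein table was used here.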

Additional observations from a re-analysis of the deposited data

Results flagged for a closer look

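The genotype change differed between P7 and P14 for 20 of the 52 named members (adjusted p at most 0.05). This was by the interaction term of the edgeR fit, the P14 change minus the P7 change on the log2 scale. Some members were named for a large value in this contrast, so the count of 20 is a description. Over all 107 members, 26 (24.3%) were lower and 9 (8.41%) higher, against 14.3% and 13.6% of all genes tested. More negative at P14 were Zfp937 (-2.11), Zfp980 (-1.78), Zfp949 (-1.73), Zfp879 (-1.42), Zfp788 (-1.40), Zfp850 (-1.39), Zfp809 (-1.26), Zfp760 (-1.19), Zfp791 (-0.99), Zfp810 (-0.93), Zfp951 (-0.87) and Zfp959 (-0.63). More positive at P14 were Zfp830 (0.57), Zfp948 (0.73), Zfp704 (0.76), Zfp707 (1.27), Zfp787 (1.32), Zfp703 (1.66), Zfp771 (1.67) and Zfp747 (1.74). The 12 in the first group all have a KRAB box, while in the second group Zfp948, Zfp707 and Zfp747 do. A KRAB box was found in 86 of the 107 members.

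Zfp760 had 322, 214 and 98.1 normalised counts in P7 WT and 257, 371 and 319.6 in P7 mutants, and 579.6, 676 and 529 in P14 WT and 371, 412 and 379 in P14 mutants. The genotype change did not pass at either stage (0.60, adjusted p = 0.099 at P7, -0.60, adjusted p = 0.0924 at P14), and the interaction was near the threshold (adjusted p = 0.0455). Zfp879, just inside the minimum mean, had 64.4, 90.7 and 52.9 in P14 WT and 44.0, 27.1 and 45.9 in P14 mutants, and 50.2, 78.6 and 48.0 and 78.8, 96.5 and 91.5 at P7. Zfp951 fell at both stages, more at P14 (-1.32) than at P7 (-0.45), where library size alone gave -0.17 and no call. The interaction calls of Zfp760, Zfp810, Zfp879 and Zfp959 were each lost when some single library was left out.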

How the results depend on the processing

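Counts of calls and medians were stable under RLE factors, DESeq2, no low-count filter, the fits of only the groups compared and minimum means of 100 and 20. Library size alone gave 15 lower members at P14 with a median of 0.46, 12 lower at P7 with a median of 0.54, a median of 0.068 for age in WT, and 14 higher in the interaction, where upper-quartile factors also gave 14. These factors move the median of all genes too. The 69 members with little shared sequence gave 24 higher at P14, 13 lower and 31 higher at P7, 8 lower with age in WT, 15 lower with age in mutants (median 0.039) and 5 higher in the interaction, from fewer genes by construction.

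Leaving out each library in turn gave 23 to 33 lower and 32 to 39 higher members at P14 (median -0.011 to 0.11), and 17 to 24 lower and 40 to 48 higher at P7 (0.18 to 0.39). With age it gave 11 to 22 lower and 30 to 36 higher in WT (0.11 to 0.23), and 20 to 29 lower and 15 to 24 higher in mutants (-0.18 to -0.11). In the interaction it gave 15 to 30 lower and 9 to 12 higher (-0.38 to -0.19). The cause of each shift was not tested.

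Among named members, library size alone changed the sign at P14 of Zfp706 (0.15), Zfp956 (0.26) and Zfp839 (0.072). Leaving out a library moved the interaction of Zfp990 from -1.54 (without P14 Tbpl2-/- replicate 1) to 1.06, and the age change of Zfp979 in WT from -0.23 to 0.31 (without P7 WT replicate 2), so both changed sign. Of 260 values of named members, 258 kept their direction and side of the threshold under DESeq2, 259 under RLE factors, 224 under library size alone and 251 with the block. With replicate numbers as a block, 38 members were higher and 29 lower at P14 and 45 higher and 23 lower at P7. Between genotypes, and between stages in WT, same-numbered libraries share only a number: their deviations correlated from -0.38 to 0.47 between genotypes at P14, from -0.25 to 0.10 at P7 and from -0.15 to 0.021 between stages in WT. Between stages in mutants every same-numbered pair correlated, but P14 replicate 3 also correlated with P7 replicate 2 (0.40), so the pairs are not settled. For that comparison the block over all 12 libraries gave 20 higher and 24 lower members. It lost the age call of Zfp933 (-0.43) and added Zfp703 (0.78) and Zfp768 (0.40). The mutant libraries alone with the block, a fit added after seeing the data, lost no age call among 52 named members and added 7, Zfp703 (0.72), Zfp768 (0.37), Zfp771 (0.37), Zfp787 (0.47), Zfp750 (0.37), Zfp979 (-0.42) and Zfp930 (-0.34). Depth limits low genes, such as Zfp711 in P14 WT, to a few counts.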

Other observations

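Zfp871 had 584, 1013 and 868 normalised counts in P7 mutants and 134, 278 and 267 in P14 mutants, while in WT it had 225, 240.0 and 78.7 and 59.0, 63.1 and 111. P7 WT replicate 3 was the lowest of its group in Zfp871, Zfp711, Zfp760 and Zfp937.

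On chr2:177464733-178078476, Zfp970, Zfp971 and Zfp931 all fell with age in WT, with a median of -1.25. Zfp970 had 248, 190.0 and 195 normalised counts in P7 WT and 60.1, 81.5 and 74.7 in P14 WT, and in mutants 279.8, 198 and 233 at P7 and 128, 90.9 and 133 at P14. Zfp970 and Zfp971 share 49.7% and 51.1% of their 50-base stretches with other genes, so their levels are uncertain.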
